A study of Sus scrofa with 9 samples.

Results

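The 3 libraries described here hold the RNA of untreated porcine embryonic fibroblasts (PEF), the libraries titled as PEF controls, and they make up 3 of the 9 libraries of the series. They were chosen by that title alone, with no use of measured values. The labels give all 3 as untreated fibroblasts of embryonic stage, and the submitters collected them at 0 h, after PEF lines had been thawed and grown and before any insulin was added. The other 6 libraries, of cells taken 48 h and 72 h after insulin, were not analysed here. The submitters call the 3 libraries biological replicates, but the labels name no animal, line or culture for any of them, so the spread between them may be technical. With a single group there was nothing to test, and the values below are means and standard deviations over 3 libraries, counts and ranges.

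Fibroblasts are the cells that build and remodel connective tissue. They secrete collagens, fibronectin and proteoglycans into the space around them, hold on to that matrix through integrins, and pull on it through actin and myosin. Embryonic fibroblasts keep dividing when placed on plastic, and there many of them take on features of the myofibroblast, the contractile cell of healing wounds. They also keep a record of where in the body they came from, as a pattern of HOX and other homeobox genes.

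Levels are given as deposited, in FPKM, the fragments of a gene scaled to its length and to the size of the library, so that levels of different genes can be set side by side. A gene is described as expressed where it had an FPKM of at least 1 in all 3 libraries. Of 30477 genes listed, 10561 (34.7%) were expressed, and of the 14864 genes that could be paired with a symbol 64.0% were. That 64.0% is the share to set beside the counts of lists and families given below. The gene in the middle of those with a symbol had an FPKM of 4.59, and the gene in the middle of those expressed had 11.5. The FPKM values of a library summed to 494369 ± 5639 (SD, n = 3), and the libraries had between 10797 and 10803 genes at an FPKM of 1 or more. The read depth is unknown, because FPKM carries no counts and the lowest values held too few whole steps to work it out. These are bulk RNA values, in which a smaller number of cells of a kind and less RNA per cell cannot be told apart.

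The most abundant genes were those of collagen I, actins, other structural proteins and mitochondrial DNA. COL1A1, which encodes the alpha 1 chain of collagen I, was the most abundant gene, with FPKM of 8627, 8512 and 8083 in replicates 1, 2 and 3 (mean 8407 ± 287). COL1A2, the partner chain of the same collagen, had FPKM of 5756, 5658 and 5625. The COL1A1 libraries all lay above the COL1A2 libraries, and the ratio of the 2 levels was 1.48 ± 0.0374 (SD, n = 3). Collagen I is a trimer that takes 2 alpha 1 chains for each alpha 2 chain. COL1A1 (ENSSSCG00000036135) is a protein-coding gene of chromosome 12, from 26379087 to 26397180 in Sscrofa11.1, and COL1A2 of chromosome 9, from 74174484 to 74210407. Together they held 2.85% ± 0.0829 of the FPKM sum.

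At levels that overlapped those of COL1A2 came ACTG1 at a mean FPKM of 5817 and ACTB at 5667, the cytoplasmic actins, and LGALS1, the secreted lectin galectin-1, at 5470.0. LGALS1 had FPKM of 5694, 5081 and 5636, the second library being the lowest. TMSB10 and TMSB4X, thymosins that bind actin monomers, had means of 5417 and 3408. VIM, the intermediate filament protein of mesenchymal cells, had 4666. Of the 60 genes with a symbol of highest mean FPKM, 12 belonged to the matrix lists, 14 to the cytoskeleton lists, 15 encoded ribosomal proteins and 11 were encoded in mitochondrial DNA. The 8 others were LGALS1, VIM, GAPDH, ANXA2, TPT1, S100A6, DES and CST3. The 10 most abundant genes held 11.7% ± 0.0844 of the FPKM sum, the top 100 held 39.6% ± 0.309, and 216 genes were enough to hold 50%. Genes without a symbol were 6 of the 60 most abundant and are not described.

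**Figure D1:**
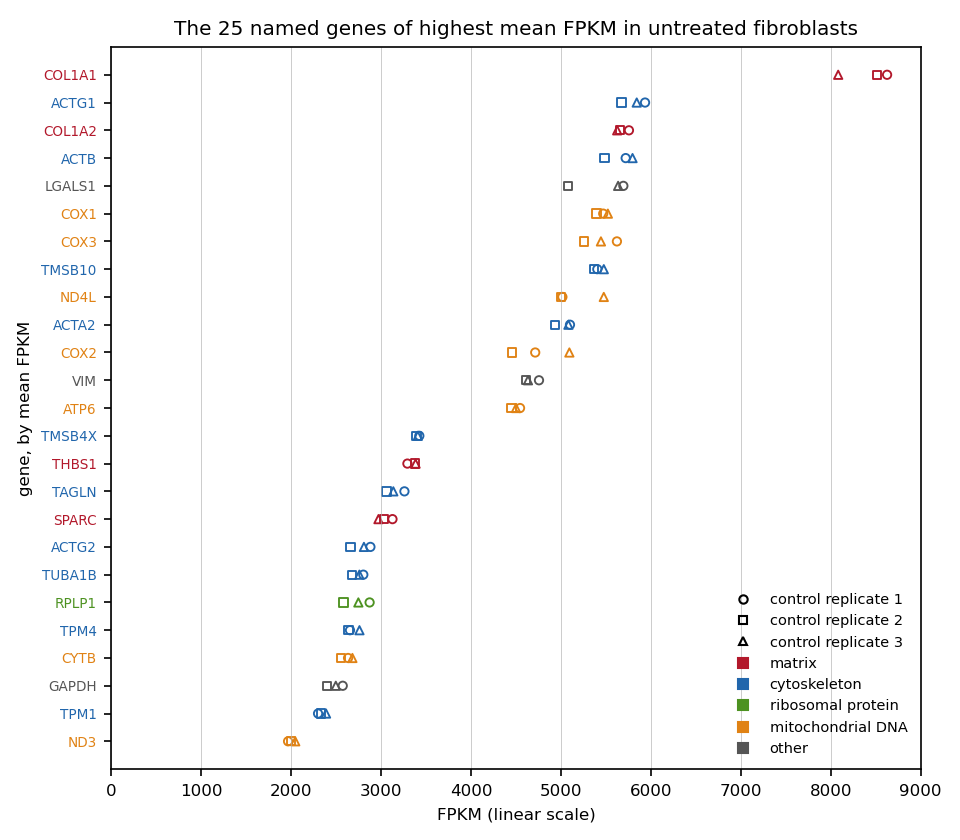
FPKM (horizontal axis, linear) of the 25 genes with a symbol of highest mean level, each drawn as 3 points for the 3 untreated libraries and coloured by gene group. COL1A1 stands alone at the top with libraries between 8083 and 8627, and the 3 points of most genes lie close together.

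The 4 genes given as markers of the culture were abundant in every library. VIM had FPKM of 4756, 4608 and 4633 (mean 4666 ± 79.0). FN1, the fibronectin that links cells to collagen, had FPKM of 1629, 1672 and 1591. DES, the desmin filament known from muscle and from some myofibroblasts, had FPKM of 1445, 1453 and 1422. TNC, the matrix glycoprotein tenascin-C of embryonic and healing tissue, had FPKM of 1086, 1095 and 1066. The libraries of these 4 genes did not overlap, in the order VIM, FN1, DES and TNC, and their CVs ran from 1.11% to 2.49%. In Sscrofa11.1, VIM (ENSSSCG00000011033) spans chromosome 10, from 43516441 to 43526172, FN1 chromosome 15, from 117658158 to 117737145, DES chromosome 15, from 121428539 to 121435426 and TNC chromosome 1, from 255533235 to 255630381. All 4 are protein-coding, and each value covers the whole gene.

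All 27 matched genes of a list of 30 fibroblast genes were expressed, with a median FPKM of 163, against 64.0% of genes with a symbol and a median of 4.59 over them. COL6A2, THY1 and TWIST1 could not be paired with a gene identifier by symbol and are not analysed here, as is said of other genes below. SPARC, a secreted protein that binds collagen, had FPKM of 3126, 3031 and 2970.1. PRRX1, a homeobox factor of limb and body wall mesenchyme, had FPKM of 171, 174 and 173. The list spanned from COL1A1 down to TCF21, a transcription factor of mesenchyme around internal organs, at a mean of 2.95.

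Within that list, some genes much used as fibroblast markers lay in its lower part. DCN, which encodes decorin, had a mean FPKM of 26.5 ± 1.03, LUM, which encodes lumican, 12.7 ± 0.486, and FAP, a surface protease of activated fibroblasts, 6.29. Of the PDGF receptors, PDGFRB had FPKM of 101.6, 97.3 and 94.3 and PDGFRA 9.42, 9.17 and 9.44. The PDGFRB level was 10.5 ± 0.421 times that of PDGFRA. TWIST2 was the list's least even member, at FPKM of 13.3, 21.1 and 13.2, with the second library above the others.

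**Figure D2:**
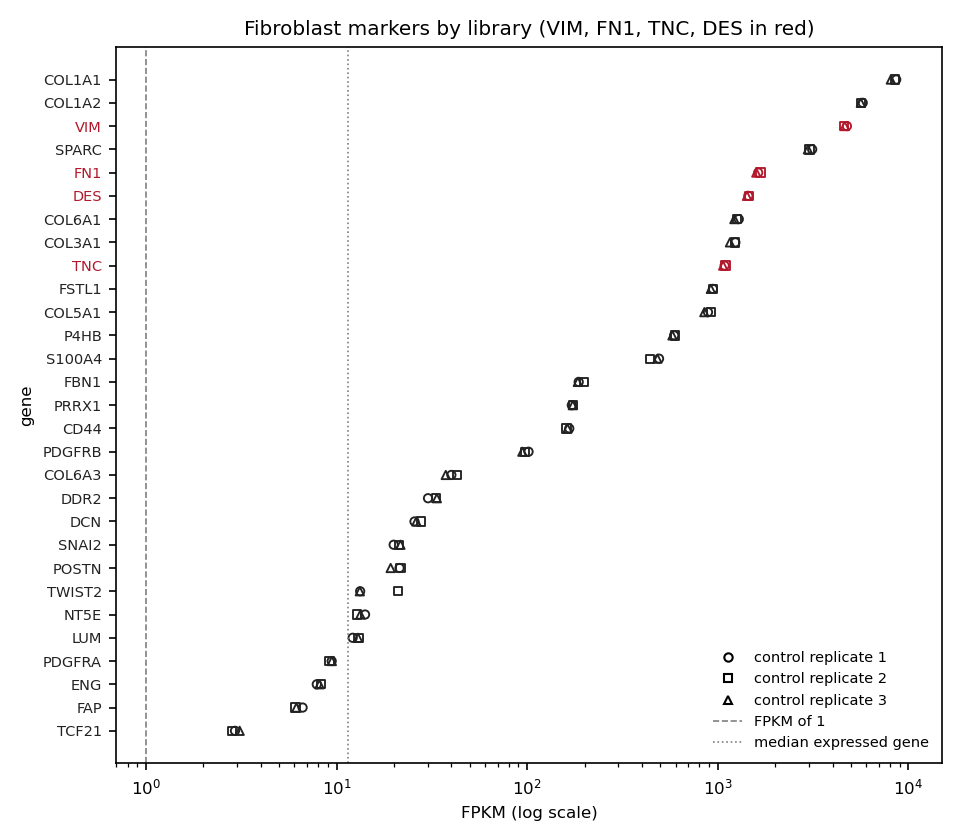
FPKM (horizontal axis, log scale) of the fibroblast list and of the 4 marker genes (in red) in each untreated library. Every point lies above the dashed line at an FPKM of 1, and PDGFRA, ENG, FAP and TCF21 lie below the dotted line at 11.5, the median of expressed genes.

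The genes of the extracellular matrix held 8.99% ± 0.208 of the FPKM sum, over 163 genes of which 124 were expressed. Collagens of all kinds held 4.07% ± 0.119, with 21 of 39 expressed (53.8%, below the 64.0% of genes with a symbol). Among the collagens that form fibrils, 9 of 11 were expressed. COL3A1, which mixes with collagen I in skin and vessels, had FPKM of 1236, 1229 and 1158, and COL1A1 was 6.96 ± 0.0323 times as high. COL5A1 and COL5A2, the chains of the collagen V that starts fibril assembly, had means of 885 and 899, and their libraries overlapped. COL11A1, a fibril collagen best known from cartilage, had 129, while COL2A1, the main cartilage collagen, had 0.660.

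Of the basement membrane collagens, COL15A1 had a mean FPKM of 429 ± 2.98, COL4A1 of 338 and COL4A2 of 239. COL4A1 and COL4A2 assemble together into collagen IV of almost all tissues, and the other collagen IV genes COL4A3, COL4A4, COL4A5 and COL4A6 were each below an FPKM of 1. COL6A1, of the microfibrils around cells, had FPKM of 1288, 1257 and 1222, far above COL6A3 at a mean of 40.1. COL12A1, which sits on the surface of collagen fibrils, had a mean of 278.

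Of 46 matched matrix glycoproteins, 37 were expressed. THBS1, a thrombospondin that activates latent TGF-beta, was the highest with FPKM of 3292, 3373 and 3383. Its level was 36.1 ± 1.55 times that of THBS2. CCN1 and CCN2, matrix proteins whose genes are targets of YAP, had means of 581 and 329. FBN1, the fibrillin of elastic microfibrils, had 189.8, and ELN, the elastin deposited on them, had 32.5. The laminin chains LAMB1 and LAMC1 had 146 and 142, with libraries that overlapped, and LAMA4 was the highest alpha chain at 38.9.

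The small leucine-rich proteoglycans, which coat collagen fibrils, differed widely in level. FMOD, which encodes fibromodulin and is abundant in tendon and cartilage, had FPKM of 1796, 1764 and 1738. BGN, which encodes biglycan, had FPKM of 1162, 1119 and 1044, and ASPN, which encodes asporin, a mean of 372. FMOD was 66.8 ± 3.15 times as high as DCN in the same libraries, and BGN 41.9 ± 3.01 times. Of 11 matched genes of tendon and joint 9 were expressed (81.8%), above the 64.0% of genes with a symbol. Their median FPKM was 6.01, against 4.59 over genes with a symbol. The members other than FMOD, TNC and COL12A1 were lower, with TNMD at 1.77, the tendon factor SCX at 3.41 and MKX at 5.98. Of the proteoglycans on the cell surface, SDC2 had 519, and VCAN, the large versican of loose embryonic matrix, had 34.2.

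Of 21 matched genes that process collagen 20 were expressed, with a median FPKM of 81.4. P4HB, a subunit of the prolyl hydroxylase, had a mean FPKM of 588 and SERPINH1, the collagen chaperone HSP47, had 519. All 5 lysyl oxidases, which crosslink collagen, were expressed, led by LOXL2 at 285 and LOX at 204. TGM2 at 0.763 was the member that was not expressed.

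Of 33 matched proteases and their inhibitors 27 were expressed. SERPINE2, a secreted inhibitor of thrombin and other serine proteases, had FPKM of 1096, 1069 and 1080.3. PLAU, the urokinase that activates plasminogen, had a mean of 45.1, and CTSB, a lysosomal protease, had 438. MMP14 and MMP2, a membrane protease and the gelatinase it activates, had means of 287 and 252, and TIMP1, an inhibitor of such proteases, had 239. The libraries of TIMP1 and MMP2 overlapped. MMP9, MMP13 and MMP7 had 0.167, 0.0467 and 0.

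Contractile genes were expressed without exception, 28 of 28 against 64.0% of genes with a symbol, with a median FPKM of 389. ACTA2, the smooth muscle actin that defines the myofibroblast, had FPKM of 5100.1, 4937 and 5083, and the cytoplasmic ACTB had 5719.6, 5485 and 5796. All ACTA2 libraries lay below all ACTB libraries, and the ratio of their levels was 0.890 ± 0.0117. TAGLN, an actin-binding protein of smooth muscle, had FPKM of 3259, 3059 and 3135, and ACTG2, the enteric smooth muscle actin, 2881, 2659 and 2809. Tropomyosins TPM4, TPM1 and TPM2, which wrap around actin filaments, had means of 2683, 2339 and 1704. MYH9, the non-muscle myosin heavy chain, had 519, whereas MYH11, the heavy chain of differentiated smooth muscle, had FPKM of 3.10, 3.19 and 3.61.

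CNN1, a calponin of contractile cells, was 215 ± 13.5 times as high as MYH11. MYOCD, the coactivator that drives the smooth muscle programme, had a mean FPKM of 2.13. The actin genes are near-identical over long stretches, so that reads may have been divided among ACTA1, ACTA2, ACTB, ACTC1, ACTG1 and ACTG2 in ways the deposited values do not show. As a group these 6 genes held 3.91% ± 0.0537 of the FPKM sum. The lists of contractile genes, of actins, tubulins and thymosins, and of SRF and YAP targets together held 11.09% ± 0.0412, with 61 of 63 genes expressed.

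Integrins, which bind cells to the matrix, were led by the fibronectin receptor. Of 23 matched integrin genes 14 were expressed (60.9%), close to the 64.0% of genes with a symbol. ITGB1, the common beta chain, was the highest at FPKM of 859, 836 and 891. ITGA5, its partner in the fibronectin receptor, came next at 431, 421 and 414. ITGA8, another chain that binds fibronectin and tenascin, followed with a mean of 185 ± 2.93. The collagen-binding chains ITGA11 and ITGA1 had 29.2 and 10.1, and ITGA2 0.287. Among junction genes GJA1, the gap junction protein connexin 43, had 258, CDH11, the cadherin of mesenchymal cells, 145, and CDH2, N-cadherin, 70.2. CDH1, E-cadherin of epithelia, was listed at 0 in all 3 libraries.

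Most genes that mark other cell types were not expressed. The 13 lists for such types held 180 matched genes, of which 48 (26.7%) were expressed, against 64.0% of all genes with a symbol, and 43 were listed at 0.00 in every library. No matched gene of the erythroid (9 matched), adipocyte (12) and mesothelial (4) lists was expressed. HBB, a globin, ADIPOQ and LEP, fat hormones, and CALB2, of mesothelium, were listed at 0.

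Of 17 epithelial genes 4 were expressed, and EPCAM, CLDN3 and GRHL2 were listed at 0. The highest, KRT8, had FPKM of 6.43, 5.36 and 6.16, while KRT18, the keratin that pairs with it, had 0.340, 0.2 and 0.2. The summed FPKM of the epithelial list ran from 11.7 to 13.9. Of 20 genes of white blood cells 4 were expressed. PTPRC, the CD45 antigen of all of them, CSF1R, CD3E and MS4A1 were listed at 0. Yet LYZ, which encodes lysozyme, had FPKM of 23.7, 22.2 and 22.3, CD79A, of the B cell receptor, 9.89, 12.9 and 9.77, and LCP1, a plastin of blood cells, a mean of 3.94. The summed FPKM of the blood list ran from 40.5 to 42.8 over the libraries.

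Of 13 endothelial genes 3 were listed at 0, CDH5, EMCN and ROBO4, and PECAM1 had FPKM of 0.830, 0.550 and 0.980. ERG, FLT1 and CLDN5 were the 3 that were expressed, at means of 8.21, 6.04 and 5.75. The summed FPKM of this list ran from 20.7 to 21.6. Of 18 neural genes 6 were expressed, with a summed FPKM of 139 to 149. The list had TUBB3, a tubulin of neurons, at 66.6, NCAM1, an adhesion molecule, at 46.6 and STMN2, a stathmin of neurons, at 24.5, but SOX10, of neural crest and glia, at 0.00667, SNAP25, of synapses, at 0.0633 and ELAVL3 listed at 0. In the melanocyte list, with 5 of 10 expressed and a summed FPKM of 23.51 to 25.25, SLC45A2, a transporter of pigment cells, had FPKM of 12.8, 11.3 and 13.2, while TYR and TYRP1, the pigment enzymes, were listed at 0. The part that a few cells of such types may have in these values was not tested.

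Of 16 mural and smooth muscle genes 11 were expressed (68.8%), the highest share of the 13 lists and above the 64.0% of genes with a symbol. The summed FPKM of the list ran from 5201 to 5417 over the libraries. Its highest member was ACTG2, at a mean of 2783, and reads of actin genes may be divided among them as said above. Of the 16 genes 4 had a mean of at least 100, ACTG2 and CSPG4 among them. CSPG4, the NG2 proteoglycan of pericytes, had a mean of 113, LMOD1, a leiomodin, 88.7 and NOTCH3 52.7. RGS5, a pericyte gene, had 0.00667. Of 21 skeletal and cardiac muscle genes 6 were expressed, and without DES the highest was ACTC1, the cardiac actin, at 21.6 ± 0.547. MYOD1, which sets the skeletal muscle fate, had 0.0200, and CKM, the muscle creatine kinase, 0.0167.

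Of 17 bone and cartilage genes 7 were expressed. SPP1, which encodes osteopontin, had FPKM of 218, 217 and 215, DMP1, a matrix protein of osteocytes whose gene lies in the same region of chromosome 8, had 16.7, 16.4 and 16.6, and RUNX2, the factor of the bone lineage, had a mean of 8.98. SOX9, of cartilage, had 1.41, ALPL, the phosphatase of mineralising cells, 0.357, and IBSP, a sialoprotein of bone, 0.0133. Of 18 listed pluripotency and germ cell genes 7 could not be paired by symbol and are not analysed here. Of the 11 matched, 1 was expressed, KLF4, which fibroblasts also use, at 45.1. NANOG and LIN28A were listed at 0. Of 14 liver and endoderm genes 2 were expressed, GATA6 and APOA1, at 2.75 and 2.14.

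**Figure D3:**
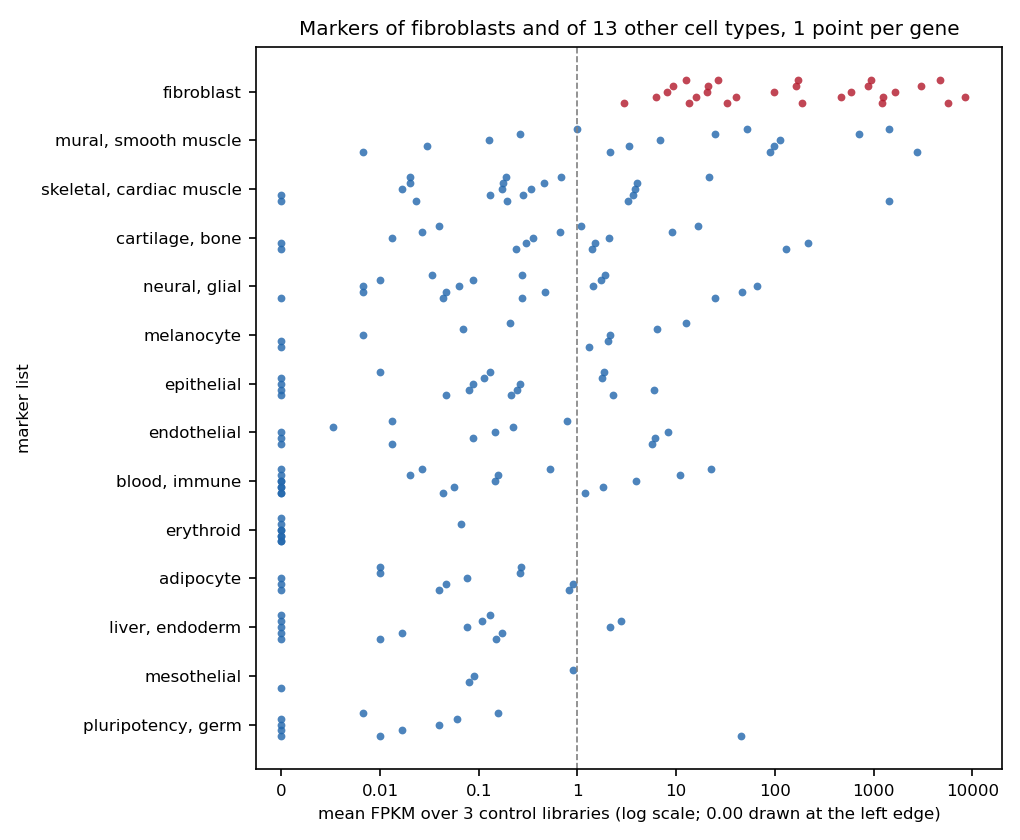
Mean FPKM (horizontal axis, log scale, with 0.00 drawn at the left edge) of each matched gene of the fibroblast list and of 13 lists for other cell types. The 27 fibroblast genes all lie to the right of the dashed line at an FPKM of 1, while 48 of the 180 genes of the other lists were expressed, with the mural list reaching furthest to the right.

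The HOX genes gave a low but ordered pattern. HOX genes lie in clusters named A to D, and their numbers, the paralog groups, follow their order along the cluster and the position in the body where they act, from head (1) to tail and limb tip (13). Of 34 matched HOX genes 18 were expressed, with no gene above an FPKM of 10.35 in any library. In paralog groups 4 to 10, 16 of 19 genes were expressed, and their levels summed to 61.5 ± 2.00 (SD, n = 3). In groups 11 to 13, 0 of 7 were expressed, the highest being HOXA11 at a mean of 0.557. In groups 1 to 3, 2 of 8 were expressed, HOXB3 and HOXB2, at 5.38 and 2.82.

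HOXC8, of the trunk, was the highest HOX gene at FPKM of 10.35, 9.11 and 9.59. HOXD8 followed at 7.47, 5.87 and 5.13, then HOXB3 and HOXC5, whose mean was 5.10. The HOXC8 libraries lay above all libraries of the others, whereas those of HOXD8, HOXB3 and HOXC5 overlapped in that order. HOXA4, HOXA6, HOXA13, HOXB9 and HOXD13 are not analysed here. In groups 9 and 10, HOXC9 and HOXA9 had means of 4.36 and 4.25, and HOXC10 and HOXA10 had 2.1 and 1.46.

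**Figure D4:**
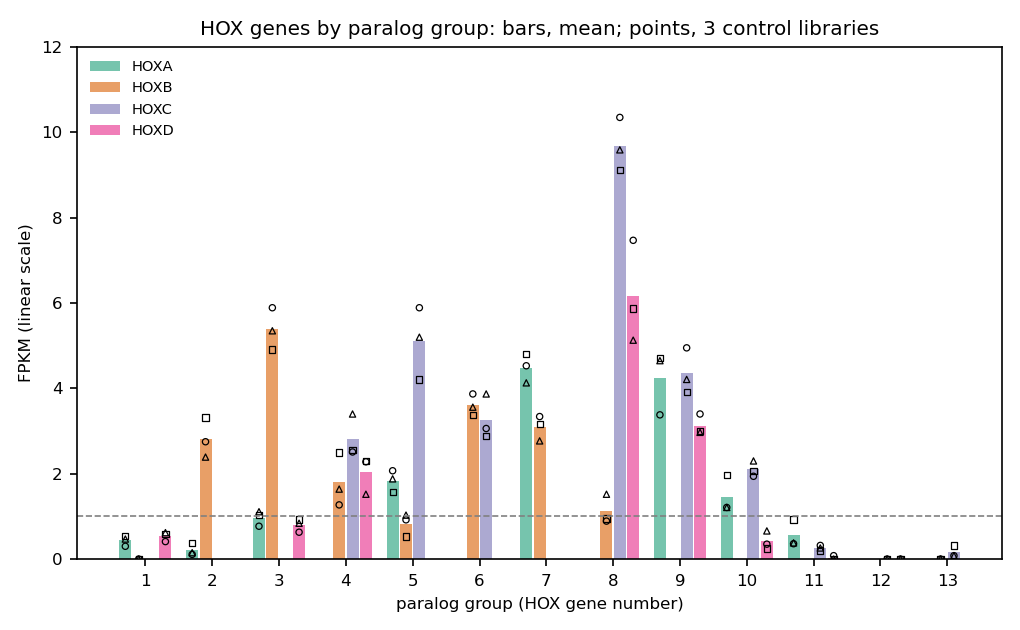
FPKM (vertical axis, linear) of 34 HOX genes by paralog group, with bars for the mean and points for the 3 untreated libraries, coloured by cluster. The bars above the dashed line at an FPKM of 1 lie in groups 2 to 10, with HOXC8 the highest at 9.68.

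Other transcription factors of mesenchyme were expressed for 51 of 68 matched genes (75.0%), beside 64.0% of genes with a symbol. Their median FPKM was 2.99, below the 4.59 over genes with a symbol. ID3 and ID1, which block differentiation factors and respond to BMP, had means of 287 and 95.5. PRRX2 stood above PRRX1, at FPKM of 207, 211 and 192. HAND2 and TBX2, of the limb bud and heart field, had 28.8 and 19.8, SHOX2, of the limb, 15.2, DLX2, known from the facial mesenchyme, 28.3, and FOXF1, of the mesenchyme around the gut, 13.1. TBX5, of forelimb and heart, had 4.37, and TBX4, of the hindlimb, 0.897. PAX1, of the ventral somite, had 6.5. Genes known from several embryonic regions were present side by side. Of 67 pairs of neighbours in the order of levels of this list, 56 overlapped.

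Genes of fetal growth included PEG10, an imprinted gene, at FPKM of 406, 417 and 445, and SGCE, its imprinted neighbour on chromosome 9, at a mean of 77.3. DLK1, another imprinted gene of fetal tissue, had 0.0300. IGF2BP2, an RNA-binding protein of fetal cells, had 29.2, and LIN28B 0.157. IGF2, H19 and HMGA2 are not analysed here. Only 4 of 11 listed sex-linked genes were matched. EIF1AY and KDM5D, genes of the Y chromosome, were listed at 0 in all 3 libraries. Of the 3 matched genes that the RefSeq table places on chromosome Y, 1 was expressed: XG, a blood group gene named after its value was seen, had FPKM of 7.67, 7.76 and 7.97. Whether the reads of XG came from chromosome Y, and the sex of the cells, was not tested. DDX3X, on the X chromosome, had 143.

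Genes of cell division were expressed almost throughout, at levels above the middle of the transcriptome. Of 70 matched genes of mitosis and G2/M 69 were expressed, with a median FPKM of 21.3 (SD of the library medians 1.35), 68 of them above the median of genes with a symbol and 53 above the median of expressed genes. UBE2C, a ubiquitin enzyme of the anaphase-promoting complex, had FPKM of 195, 193 and 201. MYBL2, a transcription factor of G2/M genes, had FPKM of 121, 116 and 119. CCNB1, the mitotic cyclin, had FPKM of 81.0, 76.0 and 86.6 and CDK1, its kinase, 47.7, 44.4 and 44.2. TOP2A, which untangles chromosomes, had FPKM of 49.8, 52.1 and 52.9. CDC25C, the phosphatase that activates CDK1, was the exception at 1.12, 0.8 and 0.910. MKI67, CCNA2 and AURKA are not analysed here.

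Of 67 matched genes of the G1/S transition and DNA replication, 67 were expressed, at a median FPKM of 15.9 (SD of the library medians 0.939), 56 above the median of genes with a symbol and 39 above that of expressed genes. DUT and TK1, which supply thymidine nucleotides, had FPKM of 205, 196 and 217 and of 99.4, 119 and 124. Of the helicase that opens DNA at origins, MCM7 had a mean of 60.4 ± 0.972, MCM4 45.8, MCM2 25.1, MCM3 20.3 and MCM6 17.1, and MCM5 is not analysed here. CDC6, which loads that helicase, had FPKM of 1.72, 1.34 and 1.43. CDK4, the kinase of early G1, had a mean of 99.1, 8.02 ± 0.878 times that of CDK6. Of the D cyclins CCND3 had FPKM of 46.1, 46.1 and 46.0 and CCND1 of 22.3, 21.8 and 22.2, with no overlap. CCNE1, the cyclin of S phase entry, had a mean of 4.05, and CCNB1 was 20.1 ± 0.775 times as high.

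Inhibitors of the cycle were present as well, 34 of 35 at a median FPKM of 11.9. GADD45A, induced by stress and DNA damage, had FPKM of 286, 289.7 and 315. CDKN1A, the inhibitor p21 and a target of p53, had FPKM of 106, 105 and 105, and CDKN1B, the inhibitor p27, a mean of 36.7. CDKN2A, which encodes p16 and ARF and accumulates in senescent cells, had FPKM of 3.75, 2.72 and 3.53, and CDKN2B 1.83. LMNB1, a lamin that is lost in senescence, had a mean of 69.4, HMGB2 22.1, and IL6 and CXCL8, of the senescent secretion, 9.06 and 3.34. All 13 matched genes of the senescence list were expressed, against 64.0% of genes with a symbol. Their median FPKM was 22.1, and 5 had a mean of at least 100. SERPINE2, IGFBP7 and TIMP1, which are on that list, had means of 1082, 545 and 239. Whether any of the cells were senescent was not tested.

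Immediate early genes, which serum and handling induce within minutes, were expressed for 19 of 23 (82.6%), beside 64.0% of genes with a symbol. FOS had FPKM of 171, 167 and 177, JUN 66.9, 69.5 and 73.2, MYC 45.8, 44.7 and 44.8 and EGR1 34.0, 33.0 and 33.5. EGR3 was listed at 0, and EGR2 and NR4A3 had means of 0.237 and 0.487. The CVs of FOS, JUN, MYC and EGR1 ran from 1.30% to 4.53%.

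**Figure D5:**
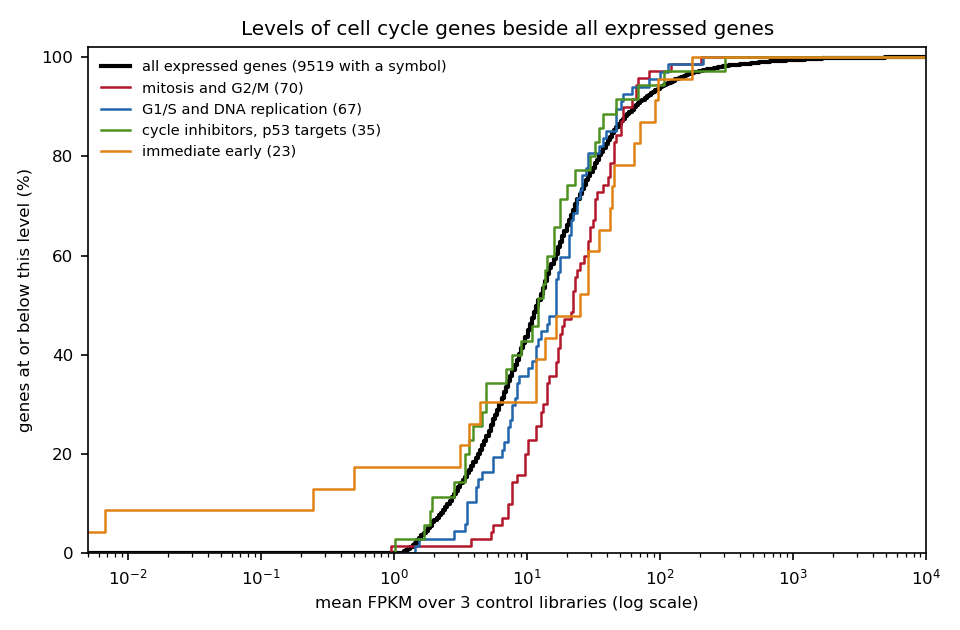
Share of genes (vertical axis, %) at or below each mean FPKM (horizontal axis, log scale) for all 9519 expressed genes with a symbol and for 4 lists. The curves of mitosis and of G1/S genes lie to the right of the black curve through its lower and middle part. The list medians were 21.3 and 15.9, against 11.5 over all 10561 expressed genes, those without a symbol included.

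Receptors for growth factors were expressed for 27 of 34 genes (79.4%), and ligands and secreted antagonists for 35 of 51 (68.6%), beside 64.0% of genes with a symbol. Of the receptors AXL, which binds GAS6, was the highest at FPKM of 116, 116 and 113, followed by PDGFRB. ROR2, a receptor for WNT5A, had a mean of 55.2, TGFBR2 36.7, and FGFR2 and FGFR1 22.3 and 19.5. EGFR had 13.5, and CSF1R was listed at 0. Of the secreted genes SFRP2 and DKK3, secreted proteins of the WNT antagonist families, had 296 and 131, VEGFA, the growth factor of vessels, 128, and INHBA, the activin subunit, 86.5. GREM1, which blocks BMPs, had 51.3, and IL11, a cytokine that fibroblasts make in response to TGF-beta, had FPKM of 50.1, 49.5 and 51.9. TGFB1 and TGFB3 had 38.7 and 38.8.

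Of the genes that would receive insulin, INSR, the insulin receptor, was low, at FPKM of 1.22, 1.61 and 1.39. IGF1R, the related receptor for insulin-like growth factors, had FPKM of 21.1, 22.5 and 22.7 and was 15.9 ± 1.73 times as high, with no overlap between their libraries. IGF2R, which clears IGF2, had a mean of 32.3. The adaptors IRS1 and IRS2 had 8.48 and 2.93, and IRS4 was listed at 0. The kinase gene AKT2 had 36.7, and SLC2A4, the glucose transporter that insulin moves to the surface of fat and muscle cells, had 0.0533. AKT1, SLC2A1 and SLC2A3 are not analysed here.

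Of 6 matched binding proteins of insulin-like growth factors 5 were expressed, 4 of them at a mean FPKM of at least 100. IGFBP5 had FPKM of 189, 187 and 182 and IGFBP4 a mean of 109. IGFBP7 had FPKM of 484, 669 and 482 and IGFBP2 244, 370.3 and 238, both highest in the second library. IGF1 itself had a mean of 0.943, and IGFBP1 was listed at 0.

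In glycolysis 19 of 26 genes were expressed, led by GAPDH with a mean FPKM of 2489, ENO1 with 903, LDHA with 688 and PKM with 655. LDHA, the lactate dehydrogenase subunit that favours lactate, had FPKM of 697, 668 and 698, while LDHB, the other subunit, had 0.380, 0.450 and 0.340. ALDOA, the aldolase of most tissues, had FPKM of 18.0, 22.5 and 15.3, low beside its neighbours in the pathway. HK1 was 9.92 ± 0.747 times as high as HK2. A level in FPKM rests on the gene model and length to which reads were assigned, and for these genes neither could be checked.

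Cytosolic ribosomal protein genes were expressed for 45 of 47 matched members of the family, and held 7.15% ± 0.124 of the FPKM sum. Among the genes listed for the large subunit 26 of 47, and for the small subunit 7 of 32, could not be paired by symbol. The share leaves those genes out. RPLP1, of the ribosomal stalk, led with a mean of 2733, and RPL3L, the form of striated muscle, had 0.0967. Ribosomal protein genes have many processed copies that can take up reads. The 13 protein genes of mitochondrial DNA held 7.34% ± 0.124, with COX1 at 5463, COX3 at 5440.5 and ATP8 at 25.1, 24.3 and 13.9. ATP8 shares 43 bases with ATP6 in RefSeq, and ATP6 had a mean of 4498, 229 ± 80.9 times that of ATP8. The sources used here do not say how the authors' counting shared overlapping genes.

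Chaperones of the endoplasmic reticulum, where secreted proteins fold, were high. CALR, a calcium-binding chaperone, had a mean of 641, PDIA3 541 and HSPA5, the chaperone BiP, 533, and 33 of 33 matched stress and chaperone genes were expressed. SCD and FASN, of fatty acid synthesis, had 38.9 and 27.8, and CAV1 and CAVIN1, which form caveolae, 114 and 144.

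The 52 gene families differed in how many of their members reached the level taken as expressed. Over all genes with a symbol the share was 64.0%. In 9 families every matched member was expressed, among them the mitochondrial ribosomal proteins (63 of 63), the NDUF genes of respiratory complex I (37 of 37), the hnRNPs (14 of 14) and the SRSF splicing factors (10 of 10). Of the olfactory receptors 0 of 68 reached it. Of the genes of small nucleolar RNAs, short RNAs that all cells use, 68 of 70 were listed at 0.00, so that a listed 0 in that family does not show that the RNA was absent. Zinc finger genes named ZNF were expressed for 187 of 247 (75.7%) at a median FPKM of 2.58. The kinesins were expressed for 29 of 35 (82.9%) and the solute carriers for 163 of 330 (49.4%). Potassium channel genes were expressed for 8 of 72, and keratins for 3 of 35. KCNE4, a subunit of such channels, had 27.0, the highest of that family. In the WNT family 6 of 18 were expressed, led by WNT5B at 28.8, and in the SOX family 3 of 12, led by SOX11 at 11.2.

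The libraries were close to each other. Across the 10802 genes whose mean FPKM was 1 or more, log2(FPKM + 1) correlated between libraries with a Pearson r of 0.994, 0.993 and 0.993, which is across genes that share their lengths and annotation and not across samples. The median CV was 5.26%, and 517 genes (4.79%) had a CV over 20%. The CV fell with the level, from a median of 28.9% for means of 0.1 to 1 to 9.40% for 1 to 5 and 2.55% for 1000 or more.

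The 12 genes with a symbol of highest CV, among means of at least 5, were mostly high in the second library. CDC42EP5, an effector of the GTPase CDC42, had FPKM of 12.4, 78.9 and 12.6. TMEM158, a membrane protein induced by RAS, had FPKM of 34.4, 95.5 and 35.5, and CEBPB, a transcription factor of the inflammatory and fat cell programmes, 44.6, 95.7 and 51.9. Of these 12 genes, 10 were highest in replicate 2, as were 60 of the 100 of highest CV, against 29.3% of all 7900 genes whose mean was 5 or more. The others of the 12 were GLTP, EXOSC6, CHCHD10, LYRM4, MORN2, C8orf82, FAM210B, NDUFAF6 and MRPL57. PHLDA2, an imprinted gene known from the placenta, was uneven in the same way, at FPKM of 50.7, 93.4 and 54.1. Of the 100 genes, the 58 highest in replicate 2 that had a RefSeq match had a median span of 15515 bases. Over the 6846 genes at that level with a symbol and a RefSeq match, the median span was 28848 bases.

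Several lists leaned slightly towards a single library. Of 68 mitosis genes with a mean of at least 5, 45 were highest in replicate 3, as were 30 of 56 G1/S genes, against 38.4% of all genes at that level. Of 16 proteoglycan genes 10 were highest in replicate 2, and of 21 large-subunit ribosomal protein genes 15 were highest in replicate 1, against 29.3% and 32.3%. The genes of a list are not independent of each other, and these counts were not tested. The sizes were small beside the differences between genes: the summed FPKM of the mitosis list ran from 1983 to 2109, and that of the fibroblast list from 28930 to 30157.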

How the data were processed

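RNA was measured in 3 libraries of untreated cells. Ribosomal RNA was depleted and the NEBNext Ultra RNA kit was used for the libraries, per the labels' protocols. Values are FPKM, made and deposited by the authors, 1 per gene and library with 2 decimals, per the file headers. RSEM 1.2.28, featureCounts 2.0.2, HISAT2 2.1.0, DESeq2 and Sscrofa11.1 are listed in the submitters' processing notes, without role or order. The sources used here do not say whether counting used strand, and overlapping genes may share reads.

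Means, SDs (n = 3), CVs, ranks and counts were computed from the deposited FPKM with Python 3.11.15 and pandas 2.3.3, and the code was tested on simulated data. A gene was expressed at an FPKM of at least 1 in all 3 libraries. Correlations used a pseudocount of 1. Coordinates came from RefSeq's Sscrofa11.1 table, matched by symbol for 13685 of 14864 genes (92.1%). Named were the 60 most abundant genes, members of 57 lists (1112 of 1312 genes matched) and 52 families, and the 12 genes of highest CV. Some of these genes are not reported here. Members and lists were chosen with earlier results of these data known. The alternatives varied the threshold, pseudocount, scaling, denominator and libraries.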

Additional observations from a re-analysis of the deposited data

How the results depend on the processing

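Of 60 values recomputed under other settings, 49 stayed within the limit set for them. That limit was the SD between libraries for shares and list medians, and 1.5 times for counts, the median CV and the SD of log2 values. All 30 values recomputed with 1 library left out stayed within it. For the share of a fixed set of genes this was settled in advance, since dropping 1 of 3 values cannot move their mean by a full SD. Rescaling cannot change a share either, so such rows do not show how firm the shares are. Rescaling each library to an FPKM sum of 1000000 moved the median of the mitosis list to 43.2, of the G1/S and replication list to 32.2 and of the fibroblast list to 330.0, since every level moves by a common factor. The geometric mean of FPKM + 1 gave 147 for the fibroblast list. With a minimum of 5 in place of 1, 26 members of the other cell type lists counted as expressed. Without the genes encoded in mitochondrial DNA the 100 most abundant genes held 36.4% of the sum, collagens 4.40% and cytosolic ribosomal proteins 7.72%. Over genes with a symbol alone these shares were 41.7%, 4.59% and 8.05%. For the SD of log2 values, rescaling and leaving out a library were chosen after seeing the data. With 3 libraries and unknown depth, levels near an FPKM of 1 and below carry the widest error, and a value of 0.00 gives no limit on how low a gene is. No paired analysis was possible because 1 group was described and no test was made.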

Other observations

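Genes of the interferon response were well above the middle of the transcriptome in cells with no named stimulus. ISG15, a ubiquitin-like protein induced by interferon, had FPKM of 333, 319 and 295 in replicates 1, 2 and 3. IFI6 had FPKM of 269.5, 236 and 242 and MX1, which blocks viruses, 199, 201 and 184, and 13 of 15 matched genes of the list were expressed. CXCL10, a chemokine induced by interferon gamma, had a mean of 0.577, and IRF1 12.9. The class I antigen genes of the pig are not analysed here.

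CD74, the invariant chain of class II antigen presentation, had FPKM of 136, 132 and 130.4, whereas CIITA, the activator of class II genes, had 0.730, 0.630 and 0.620 and SLA-DMA, another gene of that pathway, a mean of 0.0400. CD74 was 202 ± 13.2 times as high as CIITA. CLDN6, a claudin of embryonic epithelia, had FPKM of 48.8, 44.8 and 45.0 where CLDN3, CDH1 and EPCAM were listed at 0, and was the highest of 20 claudins, 3 of which were expressed. PAX6, a factor of eye and brain, had FPKM of 9.74, 8.17 and 8.12 and led the 8 PAX genes, 3 of which were expressed.

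The most abundant genes had short spans, introns included. The median span was 32820 bases for genes with a mean FPKM of 0.1 to 1, 37886 bases for 1 to 5, 35267 bases for 5 to 20, 24919 bases for 20 to 100, 14681 bases for 100 to 1000 and 4577 bases for 1000 or more, with no such order below 20. Among chromosomes, the share of protein-coding genes with a symbol that were expressed ran from 57.0% on chromosome 18 to 71.5% on chromosome 3, leaving out the mitochondrial genome and chromosome Y.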
